A study of Mus musculus with 13 samples.

Results

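The loci of Nkx6-1 and Nkx6-2 were examined in the peak lists of 4 transcription factors, by taking every peak with its centre in a 400-kb window of chromosome 5 (101850000 to 102250000, for Nkx6-1) or a 300-kb window of chromosome 7 (146600000 to 146900000, for Nkx6-2), on the mouse build mm9. Of the 23280 peaks in the 4 lists, 54 met this rule, with 37 at Nkx6-1 and 17 at Nkx6-2. Binding was measured by ChIP-seq, in which crosslinked chromatin is precipitated with an antibody and sequenced, in neural progenitor cultures, which were differentiated from mouse ES (embryonic stem) cells. Nkx6.1, Olig2 and Nkx2.2 were profiled in 2 ChIP libraries each, from progenitors that the labels call ventral. These cells received 500 nM retinoic acid with 160 to 800 nM of SAG, an agonist of Smoothened that switches on Sonic hedgehog signalling. The YFP3.1 line gave replicate 1 of Nkx6.1 and Olig2, and a derivative of it named Rosa26-Gli1FLAG gave replicate 1 of Nkx2.2 and replicate 2 of each ventral factor. Both are of mixed background, with C57BL6/J, 129 Sv and Swiss Webster. Gli3 was profiled in 1 library with an anti-FLAG antibody, from V6.5 cells of C57BL/6 X 129/sv background with a 3xFLAG-Avi tag at the start codon of Gli3. They received 500 nM retinoic acid without SAG, and the labels call them dorsal. Gli3 thus differs from the ventral factors in line, SAG treatment and antibody at once, and these cannot be told apart. Every library, that of Gli3 included, came from cultures with 2 days in suspension and 3 days of induction. There were 7 ChIP and 6 input libraries in all, input being chromatin sequenced without precipitation.

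Nkx6.1 and Nkx6.2 are closely related homeodomain proteins of the ventral neural tube. Nkx6.1 marks ventral progenitors and is needed in mice for motor neurons to form, and both proteins act there largely as repressors. In mice Nkx6.2 is confined to a narrower domain, and Nkx6.1 represses it in the more ventral progenitors. Olig2, a basic helix-loop-helix factor, marks motor neuron progenitors, and Nkx2.2, another homeodomain protein, marks the progenitors ventral to them. Gli3 binds DNA downstream of Sonic hedgehog, and without the signal it is mainly a repressor. The windows therefore show the binding of Nkx6.1 around its own gene and around its paralogue, beside 3 factors of the same circuit.

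The protein-coding neighbours of Nkx6-1 in the RefSeq annotation are Gpat3 and Cds1, and those of Nkx6-2 are Inpp5a and Cfap46. RefSeq gives the following 250 bases before the start of each gene on GRCm38.p6, another build than that of the peaks, so that their distance to any peak below was not analysed here. They are shown because the 2 genes are what the windows share, with CG dinucleotides in capitals.
Nkx6-1, chr5:101664712-101664961, minus strand: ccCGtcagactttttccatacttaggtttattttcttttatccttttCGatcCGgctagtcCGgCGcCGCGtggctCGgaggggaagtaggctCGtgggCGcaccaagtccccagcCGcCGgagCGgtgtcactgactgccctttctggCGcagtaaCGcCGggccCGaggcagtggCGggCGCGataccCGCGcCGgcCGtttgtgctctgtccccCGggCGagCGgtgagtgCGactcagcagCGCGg
Nkx6-2, chr7:139582798-139583047, minus strand: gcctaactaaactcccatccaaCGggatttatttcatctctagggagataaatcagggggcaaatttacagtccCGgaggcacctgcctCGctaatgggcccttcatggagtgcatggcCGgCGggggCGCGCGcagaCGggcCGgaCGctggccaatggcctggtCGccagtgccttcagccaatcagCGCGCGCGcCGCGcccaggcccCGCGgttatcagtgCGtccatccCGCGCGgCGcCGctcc
Both promoters were 65.2% G and C, against a median of 52.4% over 32536 mouse promoters of this length. Nkx6-1 held 30 CG dinucleotides and Nkx6-2 held 26, against a median of 6. Neither held TAATTA (in 4.84% of all promoters), CATCTG (14.4%), CAGCTG (13.1%), ACCACCC (3.92%) or CACTTNA (10%), searched on both strands. These letters were searched in the 250 bases only, and the sequence under the peaks was not searched.

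The peak lists came as 1 list per factor, with 300 bp per peak and no score. For the ventral factors a table of coverage around each peak was also given, in 3 blocks of columns that name no library, so the blocks keep their numbers here and are not replicates. No value has a replicate error for this reason, no difference was tested, and no count or level below is shown to be particular to these loci. Block 3 of the Nkx6.1 table and block 3 of the Olig2 table were the same measurement: at 80 pairs of peaks whose rows share genome positions, 9265 of 9265 values were equal within 1e-06, against 6.22% to 8.93% for the other pairs of blocks of these tables. The labels list each table under replicate 2 of its ChIP and under an input, and the input shared by replicate 2 of Nkx6.1 and Olig2 is the 1 sample listed for both. Coverage is in the tables' own units, whose scaling is not given, so levels are compared within a block of a table only, and read depth is unknown. The smallest step between values was 0.249 to 0.581 units in blocks 1 and 2 and 0.245 to 0.392 in block 3.

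Nkx6.1 had the most peaks of any list in the window of its own gene. The Nkx6-1 window held 14 Nkx6.1, 11 Olig2, 10 Nkx2.2 and 2 Gli3 peaks, and the Nkx6-2 window held 5 Nkx6.1, 7 Olig2, 2 Nkx2.2 and 3 Gli3 peaks. With the genome cut into 400-kb bins, a bin held 0.62 Nkx6.1 peaks on average, and 0 of 6601 bins (0%) reached 14, the fullest having 12. At least 11 Olig2 peaks were in 0.576% of these bins, at least 10 Nkx2.2 peaks in 0.0757% and at least 2 Gli3 peaks in 6.15%. Among 300-kb bins, 0.5% had at least 5 Nkx6.1 peaks, 1.94% at least 7 of Olig2, 15.5% at least 2 of Nkx2.2 and 1.35% at least 3 of Gli3. The fullest 300-kb bin held 13 Nkx6.1 peaks, above the 12 of the fullest 400-kb bin, so the maximum depends on where the cuts fall. The bins were cut at fixed places, while the windows were laid around the genes with the peaks known, so these shares only describe how full the windows are.

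**Figure D1:**
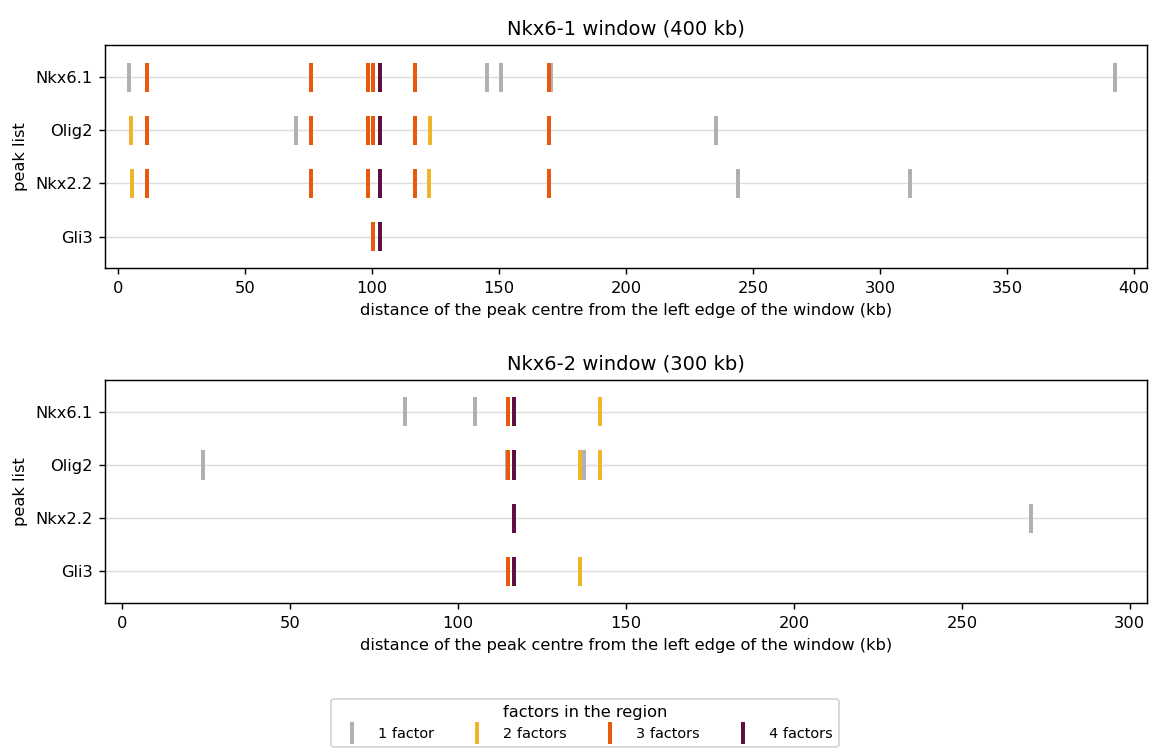
Position of each member peak, in kb from the left edge of the Nkx6-1 window (top) and the Nkx6-2 window (bottom), with 1 row per peak list. Each tick is 1 peak, coloured by how many of the 4 factors its region holds; regions of 3 or 4 factors lie between 11.3 and 169.5 kb in the Nkx6-1 window and at 114.7 and 116.5 kb in the Nkx6-2 window.

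Peaks nearest the window edges show what the choice of edge decided. The outermost members at Nkx6-1 were Nkx6.1 peaks, 4344 bp inside the left edge (13.1 units in block 1) and 7530 bp inside the right edge (13.6 units). Beyond them, an Olig2 peak lay 6494 bp outside the left edge (15.5 units in its own table), and the next peak to the right lay 289207 bp outside the edge. At Nkx6-2 the outermost members were an Olig2 peak 24085 bp inside the left edge and an Nkx2.2 peak 29337 bp inside the right edge, with the next peaks 50909 bp and 235856 bp outside.

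Peaks were counted as met by another factor where they shared 1 bp or more. A peak of any other list met 11 of 19 Nkx6.1 members (47.1% of the whole list), 13 of 18 Olig2 members (21.7%), 9 of 12 Nkx2.2 members (35.3%) and 5 of 5 Gli3 members (36.3%). In the Nkx6-1 window Olig2 met 8 of 14 Nkx6.1 peaks, and in the Nkx6-2 window 3 of 5, against 38.6% of the whole Nkx6.1 list. Nkx2.2 peaks met 7 of the 14 and 1 of the 5 (21.5% of the list), and Gli3 peaks met 2 and 2 (3.47%). Of the Olig2 peaks, Nkx6.1 met 7 of 11 at Nkx6-1 and 3 of 7 at Nkx6-2 (13.5% of the list), Nkx2.2 met 8 and 1 (11.2%), and Gli3 met 2 and 3 (3.26%). Of the Nkx2.2 peaks, Olig2 met 8 of 10 at Nkx6-1 and 1 of 2 at Nkx6-2 (24.3% of the list), Nkx6.1 met 6 and 1 (16.1%), and Gli3 met 1 and 1 (7.91%). Each of the 5 Gli3 peaks met an Olig2 peak (20.1% of the Gli3 list), 4 met an Nkx6.1 peak (7.36%) and 2 met an Nkx2.2 peak (22.5%).

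Joined where they overlapped, the 54 peaks formed 29 regions, of which 9 held 3 or 4 factors. Such regions made up 3.56% of the 19087 regions of the 4 lists, regions of all 4 factors made up 0.367%, and regions of 2 or more made up 16.2%. The Nkx6-1 window had 19 regions, with 10 of 1 factor, 2 of 2, 6 of 3 and 1 of 4. The Nkx6-2 window had 10 regions, with 6 of 1 factor, 2 of 2, 1 of 3 and 1 of 4. Centres lay closer together at Nkx6-2, where 11 pairs of peaks of different factors within a region were 2 to 35 bp apart (median 23 bp). At Nkx6-1, 28 such pairs had a median distance of 67.5 bp, and 11 of them were within 50 bp.

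From 98.2 kb after the left edge of the Nkx6-1 window, 3 shared regions followed each other with gaps of 1591 and 2372 bp. The first, at 101948248 to 101948607, held the strongest Olig2 peak of either window. Its Olig2 coverage was 137.4 units in block 1 and 103.6 in block 2, higher than or equal to 99.4% and 99.6% of the Olig2 list (its percentiles below). Nkx6.1 was also high there, with 30.4 and 14.6 units at percentiles 94.7 and 90.2 of its list. The Nkx2.2 peak had 21.4 and 5.92 units, at percentiles 62.1 and 65.3. The Olig2 and Nkx2.2 centres were 4 bp apart, and the Nkx6.1 centre lay 60 bp from that of Olig2. Block 3 was 0.896 units for Olig2, 1.06 for Nkx6.1 and 1.14 for Nkx2.2, against list medians of 0.71, 0.672 and 1.2.

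The next region, at 101950199 to 101950635 (100.2 kb from the edge), held Nkx6.1, Olig2 and Gli3 but no Nkx2.2 peak. Olig2 had 72.5 units in block 1 and 53 in block 2 (percentiles 97.3 and 97.4). The Nkx6.1 peak was weak, with 9.49 and 4.74 units at percentiles 42.6 and 45.8, and in its row, as in that of the Olig2 peak, the highest coverage lay to the left, at the 98.2-kb region. The Gli3 centre was 13 bp from that of Olig2. Although the Nkx2.2 list has no peak here, the Nkx2.2 row of the 98.2-kb region reaches into the Gli3 peak at its last offsets. Block 1 there reached 40.7 units, the highest value of the row, against at most 35.4 units within 150 bp of the row's own centre. In block 2 the order was the other way, with at most 7.80 units over the same offsets against 9.75 units within 150 bp of the centre. Block 3 had a mean of 1.06 units. The row ends at 2000 bp, so coverage beyond that was not seen.

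The region at 101953008 to 101953447 held all 4 factors. Olig2 coverage was 44.98 and 58.1 units in blocks 1 and 2 (percentiles 93.3 and 97.9), and Nkx6.1 coverage was 16.4 and 17.04 units (78.97 and 93.5). Nkx2.2 was nearer the middle of its list, with 25.7 and 5.25 units (73.9 and 58.9). The Gli3 centre lay 2 bp from that of Olig2 and 25 bp from that of Nkx6.1, while the Nkx2.2 centre was farther off. Block 3 was at percentile 84.8 of the Olig2 list and 88.2 of the Nkx6.1 list, and its part in these values was not tested. When centres had to lie within 100 bp, the Nkx2.2 peak was split off, and 0 regions of 4 factors were left in this window.

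**Figure D2:**
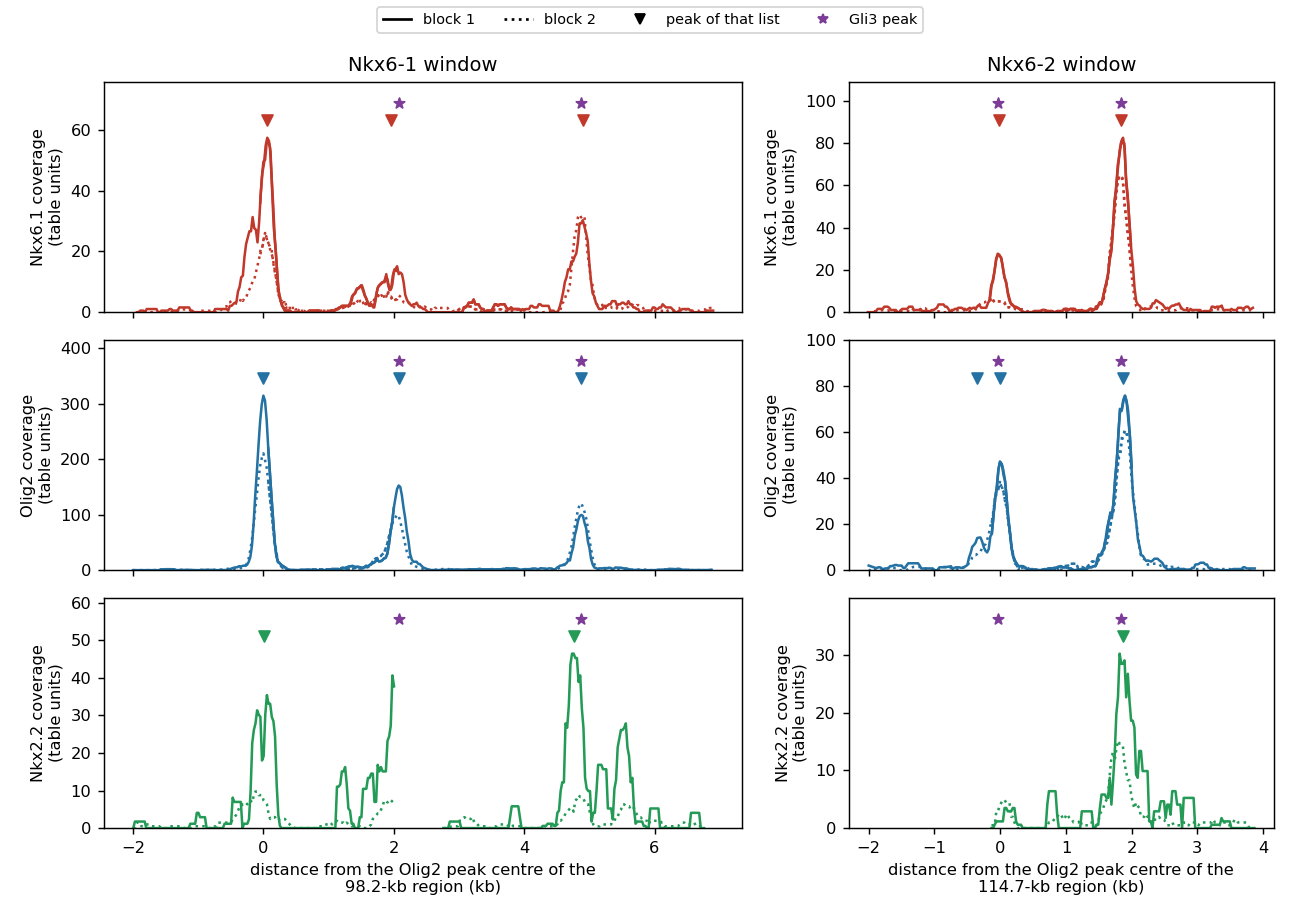
Coverage in table units along the shared regions of the Nkx6-1 window (left) and the Nkx6-2 window (right), against the distance in kb from the Olig2 centre of the first region shown, for the Nkx6.1, Olig2 and Nkx2.2 tables from top to bottom. Solid lines are block 1 and dotted lines block 2, triangles mark peaks of that list and stars mark Gli3 peaks; the Nkx2.2 line on the left breaks off near 40.7 units, where no Nkx2.2 peak is listed.

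The other shared regions of the Nkx6-1 window differed in which factor stood highest. At 101861309 to 101861709 (11.3 kb) each ventral factor ranked high. Nkx6.1 had its highest coverage of this window there, with 34.5 and 24.7 units in blocks 1 and 2 (percentiles 96.3 and 97.5), Olig2 had 40.5 and 65.7 units (92.1 and 98.4), and Nkx2.2 had 37.5 and 18.5 units (88.6 and 95.7). The Nkx6.1 and Olig2 centres were 2 bp apart. At 101925959 to 101926333 (76 kb) Nkx6.1 had 28.2 and 11.0 units (93.6 and 83.5), and Nkx2.2 had 28.1 and 10.8 units (78.9 and 85.9). Olig2 had its lowest block 1 coverage of the window there, 7.30 units (percentile 18.4), but 11.3 units in block 2 (63.3).

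Nkx2.2 stood highest at 101966668 to 101967241 (116.7 kb). Its coverage of 76.7 and 19.4 units (percentiles 97.9 and 96.2) was the highest of its 12 member peaks in both blocks. This region had a pair of Nkx6.1 peaks. The right one, 2 bp from the Nkx2.2 centre, had 16.99 and 11.1 units (80.5 and 83.5). The left one, 1 bp from the Olig2 centre, had 12.1 and 5.87 units (62.1 and 56.4), and its row was highest outside its own peak, to the right. Olig2 was low there in block 1, with 8.87 units (percentile 32.7), and had 11.0 units in block 2 (62.1). Block 3 was at percentiles 92.9 and 82.8 for the left and right Nkx6.1 peaks and 91.6 for the Olig2 peak, and its part in these values was not tested.

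At 102019501 to 102019905 (169.5 kb) Nkx6.1 had 34.2 and 18.99 units (percentiles 96.3 and 95.02), close to its highest in this window. Olig2 had 35.98 and 41.3 units (90.5 and 95.7), and Nkx2.2 had 19.3 and 7.03 units (54.01 and 72.1). To the right, starting 33 bp after this region, lay a pair of peaks of Nkx6.1 only. The nearer had 22.2 and 9.88 units (88.96 and 79.3), but the highest block 1 value of its row was 400 bp to the left, in the shared region. The farther had the lowest block 1 coverage of the 14 Nkx6.1 members, 8.80 units (36.4). At the nearer one, without a peak of theirs, Olig2 coverage was 7.73 units in block 1 and 8.35 in block 2, and Nkx2.2 coverage was 8.77 and 2.97, all under the medians of their lists (11.3, 8.44, 18.4 and 4.43).

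Regions of 2 factors at Nkx6-1 paired Olig2 with Nkx2.2. At 101972440 to 101972844 (122.4 kb), Olig2 had 32.3 and 40.5 units (88.6 and 95.5) and Nkx2.2 had 22.3 and 4.69 units (64.9 and 52.8). At 101855126 to 101855625 (5.1 kb), Olig2 had 23.5 and 14.5 units (81.5 and 73.3) and Nkx2.2 had 26.9 and 3.99 units (76.7 and 43.3), with a high block 3 of 2.46 units for Nkx2.2 (87.9). Nkx6.1 coverage at the last region was at most 4.28 units in block 1, with 0.269% of its list at or below that, although an Nkx6.1 peak lay 631 bp to the left. That Nkx6.1 peak, at 101854195 to 101854494, had 13.1 and 7.0 units (67.2 and 65.2). Over it Olig2 had 0.945 units and Nkx2.2 had 1.2 units in block 1, below the lowest peak of their lists (3.46 and 4.95 units).

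The 10 peaks of 1 factor in the Nkx6-1 window lay between percentiles 21.4 and 88.96 in block 1. For Nkx6.1 they were those at 101995081 (12.8 and 12.1 units), 102000521 (12.6 and 3.17 units) and 102242321 (13.6 and 10.6 units), beside the 3 already given. Olig2 stood alone at 101919792 (7.60 and 4.34 units) and 102085112 (10.2 and 9.42 units), where block 3 was at percentile 96.5. Nkx2.2 stood alone at 102161706 (19.5 and 2.53 units) and at 102094104, its lowest member in block 1, with 13.8 and 3.62 units (25.96 and 37.4).

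At Nkx6-2 the shared regions formed a pair, 1540 bp apart. The right one, at 146716533 to 146716862 (116.5 kb), held all 4 factors, with centres at most 30 bp apart. It had the highest Nkx6.1 coverage of the 19 Nkx6.1 members, with 41.3 units in block 1 and 33.7 in block 2 (percentiles 97.5 and 98.9). Olig2 had 42.5 and 35.9 units (92.6 and 94.3). The Nkx2.2 peak had 17.1 and 9.15 units, under the middle of its list in block 1 (43.9) and above it in block 2 (81.5). Nkx6.1 thus had its strongest member peak at the paralogue's locus and not at its own gene, by 41.3 against 34.5 units in block 1 and 33.7 against 24.7 in block 2.

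The left one, at 146714658 to 146714992 (114.7 kb), held Nkx6.1, Olig2 and Gli3. Nkx6.1 was near the middle of its list, with 12.0 and 4.10 units (61.2 and 38.2), and Olig2 had 22.2 and 21 units (79.8 and 84.5). Gli3 and Nkx6.1 centres were 22 bp apart, and those of Gli3 and Olig2 35 bp. Nkx2.2 has no peak there, and over the part of the Gli3 peak that the neighbouring Nkx2.2 row covers block 1 averaged 1.34 units, against 35.2 over the covered part of the Gli3 peak in the 100.2-kb region of the Nkx6-1 window. Block 2 averaged 2.97 units, against 7.31 there, and block 3 averaged 2.98 units, against 1.06. An Olig2 peak of 8.95 and 7.97 units (33.3 and 47.4) lay 24 bp to the left, and its row was highest 350 bp to the right, in the shared region.

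Further along the Nkx6-2 window, Gli3 met a weak Olig2 peak at 146736034 to 146736367, with 8.89 and 6.99 Olig2 units (percentiles 32.9 and 41.2). Its Olig2 coverage was the lowest of the 7 Olig2 members of this window in both blocks. An Olig2 peak without other factors was the next to the right, with 18.4 and 10.4 units (74.1 and 59.8). At 146742207 to 146742508 (142.2 kb), Nkx6.1 and Olig2 centres were 2 bp apart, with 34.9 and 33.3 Olig2 units (89.9 and 93.3) and 10.3 and 4.63 Nkx6.1 units (49.6 and 44.2). The strongest Olig2 peak of this window in block 1 stood alone, at 146623936 to 146624235, with 61.2 and 27.7 units (96.2 and 90.6). Nkx6.1 alone was at 146684097, with 29.5 and 10.1 units (94.4 and 80.3), and at 146704773, its lowest member here in block 1, with 10.1 and 9.73 units (47.9 and 78.6). Nkx2.2 alone was at 146870514, with 16.6 and 4.53 units (40.7 and 51.1).

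**Figure D3:**
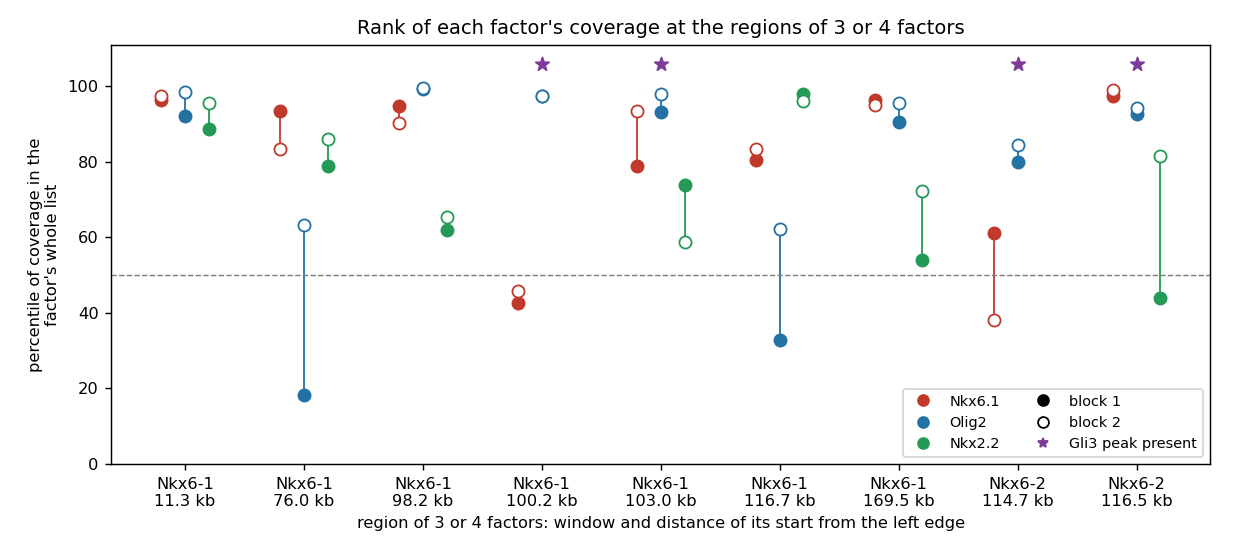
Percentile of each factor's coverage among all peaks of its list, at the 9 regions of 3 or 4 factors, named by window and by the distance of their start from its left edge. Filled circles are block 1 and open circles block 2, stars mark a Gli3 peak, and of the pair of Nkx6.1 peaks at 116.7 kb the higher is drawn; Olig2 ranges from percentile 18.4 to 99.4 in block 1 and Nkx6.1 from 42.6 to 97.5.

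The 5 Gli3 peaks stood at lines 1, 25 and 70 (Nkx6-2) and 23 and 210 (Nkx6-1) of the 1888 lines of the Gli3 list. In the ventral lists the line number fell with coverage in block 1, with a Spearman's rho of -0.89 for Nkx6.1 (4094 peaks), -0.93 for Olig2 (11747) and -0.83 for Nkx2.2 (5551), across peaks that share their library. No coverage of Gli3 was at hand, so whether its lines are ordered in the same way was not tested. The line 1 peak is the one of the 114.7-kb region, where Olig2 was at percentiles 79.8 and 84.5 and Nkx6.1 at 61.2 and 38.2, and the line 70 peak is the one at the weak Olig2 peak at 146736034. The other Gli3 peaks lay at stronger Olig2 peaks, at percentiles 97.3 and 97.4 (line 23), 93.3 and 97.9 (line 210) and 92.6 and 94.3 (line 25). The strongest Olig2 member, at the 98.2-kb region of the Nkx6-1 window, had no Gli3 peak. The region of the line 23 peak followed it after a gap of 1591 bp.

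Member peaks as a whole lay above the middle of their lists. For Olig2 the 18 members ranged from 7.30 to 137.4 units in block 1 (median 27.9, against 11.3 over the list) and from 4.34 to 103.6 in block 2 (median 24.4, against 8.44). Of them, 12 were above the list's median in block 1 and 15 in block 2. For Nkx6.1 the 19 members ranged from 8.80 to 41.3 units in block 1 (median 13.6, against 10.4) and from 3.17 to 33.7 in block 2 (median 10.1, against 5.19), with 15 and 14 above the list's median. For Nkx2.2 the 12 members ranged from 13.8 to 76.7 units in block 1 (median 21.8, against 18.4) and from 2.53 to 19.4 in block 2 (median 5.58, against 4.43), with 9 above in each. In block 3, 16 of 19 Nkx6.1 and 15 of 18 Olig2 members were above the list's median, and 4 of 12 Nkx2.2 members were. The first 2 counts read the same measurement, at places that partly overlap. Between blocks 1 and 3, Spearman's rho over members was 0.21 for Nkx6.1, -0.35 for Olig2 and 0.04 for Nkx2.2. Between blocks 2 and 3 it was 0.29, -0.33 and -0.11. The part of block 3 in the higher coverage was not tested.

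**Figure D4:**
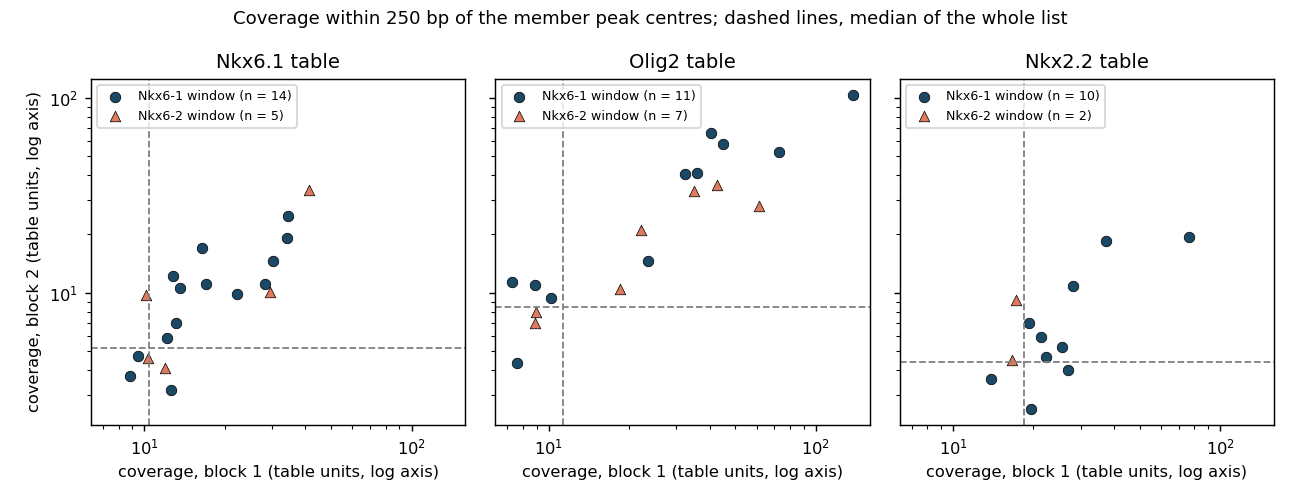
Coverage within 250 bp of each member peak's centre in block 1 (x axis) and block 2 (y axis), in table units on log axes, for the Nkx6.1, Olig2 and Nkx2.2 tables. Circles are peaks of the Nkx6-1 window and triangles peaks of the Nkx6-2 window, and dashed lines are the medians of the whole list; 15 of 19 Nkx6.1, 12 of 18 Olig2 and 9 of 12 Nkx2.2 members lie right of the vertical line.

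The rank of the members depended on whether the surroundings were counted. Members were also ranked by coverage at the centre over that of the outermost 250 bp on each side (each + 0.1). Median percentiles in block 1 were then lower for each ventral factor. For Nkx6.1 they were 47.5 in place of 74.4 at Nkx6-1 and 17 in place of 61.2 at Nkx6-2. For Olig2 they were 28.95 in place of 88.6 and 16.5 in place of 79.8. For Nkx2.2 they were 26 in place of 69.4 and 30.4 in place of 42.3. Neighbouring peaks of the same list lay within 2000 bp of 9 of 19 Nkx6.1 members (7.89% of the list), 5 of 18 Olig2 members (13.0%) and 0 of 12 Nkx2.2 members (11.3%). For Olig2 these were 5 of 7 members at Nkx6-2 and 0 of 11 at Nkx6-1. Just beyond that limit, the Olig2 centres of the 98.2-kb and 100.2-kb regions at Nkx6-1 lay 2075 bp apart. Their flanks had 20.6 and 34.4 units in block 1. The part of neighbouring peaks in the lower ranks was not tested. Blocks 1 and 2 ordered the members alike for Olig2 (Spearman's rho 0.86 over 18 peaks) and Nkx6.1 (0.84 over 19) and less so for Nkx2.2 (0.59 over 12), against 0.73, 0.64 and 0.66 over the whole Olig2, Nkx6.1 and Nkx2.2 lists, as a description of peaks that share libraries and loci. The highest value of a row lay inside its own peak for 39 of 49 ventral members in block 1 and for 39 in block 2.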

How the data were processed

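The members and the lists were chosen with earlier results of these data known. Per the submitters' processing notes, HOMER, Bowtie2 2.2.4 and the mm9 build were used; settings, filters, scaling and any pooling of replicates are not given in the sources used here. What the authors deposited were 4 peak lists (chromosome, start, end) and 3 tables of coverage (signal in unstated units). Per the file headers, each row runs 2000 bp either way from a peak centre at every 25 bp, in 3 blocks. Row i was matched to line i of the list: where rows of 1 table share positions, 100% of values were equal. Titles gave each sample's factor and whether it was ChIP or input. Columns of other samples left out numbered 0.

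Each peak's coverage is the mean within 250 bp of its centre, and the flank was the outermost 250 bp on each side. A percentile is the share of a list at or below a value in the same block. An overlap needed 1 bp. Starts are printed 1-based. Coverage of another table at a member was read from its nearest row within 1750 bp. Regions of 3 or 4 factors, Gli3 peaks, and the 3 highest and the lowest members per list and window were to be named; the remaining members were added for completeness. Distances to gene starts and motifs under peaks, both planned, were not run, since no mm9 genome or annotation was used here. The promoter search and the 400-kb and 300-kb bins were added after seeing the data. Functions were checked on simulated peaks and profiles. Python 3.11.15, pandas 2.3.3 and scipy 1.17.1 were used.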

Additional observations from a re-analysis of the deposited data

Results flagged for a closer look

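Nkx2.2 coverage in block 1 reached 40.7 units inside the Gli3 peak at 101950336 to 101950635 of the Nkx6-1 window, where the Nkx2.2 list has no peak. It stood out because it comes from the end of a row that belongs to another Nkx2.2 peak, outside the part used for that peak's coverage. The row covers only 3 offsets of the Gli3 peak up to 2000 bp, where block 1 averaged 35.2 units, block 2 averaged 7.31 and block 3 averaged 1.06. The matching place in the Nkx6-2 window, the Gli3 peak at 146714658 to 146714957, had a mean of 1.34 units in block 1 over 10 offsets.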

How the results depend on the processing

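Counting a peak with any base in a window changed 0 of 8 counts of peaks by more than 1.5 times, and windows narrowed by 50 kb on each side changed 1, Nkx2.2 peaks at Nkx6-2 (1 in place of 2). With centres within 100 bp, the Nkx6-1 window had 16 regions of 1 factor (10 in the main count) and 0 of 4 factors (1), and 5 of its Nkx2.2 peaks met another list (8). With centres within 1000 bp it had 1 region of 2 factors (2). Within 1.5 times of the main count stayed 13 of 16 counts at 100 bp and 15 of 16 at 1000 bp. Averaged within 100 bp, the 2 Nkx2.2 peaks at Nkx6-2 had medians of 29.8 units in block 1 (16.9) and 10.3 in block 2 (6.84), and a median percentile of 45.5 in block 1 (42.3). With the right flank only, median centre over flank was 20.4 for Nkx6.1 at Nkx6-2 in block 2 (11.3), and 169.6 in block 1 (19.1) and 2.23 in block 3 (1.18) for Nkx2.2 there. Ranked by centre over flank, 11 of 18 median percentiles moved by more than 1 SD over members, all downwards. They were 47.5 and 17 for Nkx6.1 at Nkx6-1 and Nkx6-2 in block 1, 28.95, 50.9 and 47.7 for Olig2 at Nkx6-1 in blocks 1, 2 and 3, 16.5, 50.1 and 48.8 for Olig2 at Nkx6-2, 26 and 23.4 for Nkx2.2 at Nkx6-1 in blocks 1 and 3, and 30.4 for Nkx2.2 at Nkx6-2 in block 1. The cause was not tested. No paired analysis was possible because the lists are 1 per factor and the blocks name no library, and for the same reason no replicate could be left out. Depth is unknown.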
